A study of Mus musculus with 12 samples.

Results

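Strong tetanization of hippocampal slices was compared with basal stimulation across all expressed genes. The comparison used 6 of the 12 libraries of the series, 3 named LTP in the labels and called STET here, and 3 Control libraries. They were taken by their group labels, with no use of measured values. All libraries came from ventral CA1 (vCA1) of wild-type male C57BL/6J mice aged 5 to 7 weeks. Control slices carried electrodes and were given basal stimulation only. STET slices were given 3 trains of 100 pulses at 100 Hz to the Schaffer collateral fibres. The slices were acute, had been incubated for at least 3 h, and were frozen 30 min after stimulation, so the measurement shows an early time point in tissue that had been cut and incubated. A piece of 1 mm2 around the electrodes was dissected, and 6 slices were pooled per library. Each mouse gave 4 slices, 1 to each group, but the labels do not tie replicate numbers to mice. The p-values therefore measure the spread between pooled libraries.

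Late long-term potentiation is a lasting gain in synaptic strength that depends on new RNA and protein. Calcium entry during high-frequency firing activates kinases that phosphorylate CREB and the partners of SRF, transcription factors already present in the nucleus. These switch on immediate early genes, which encode further transcription factors such as Fos, Egr1 and Npas4 and effectors such as Arc. Feedback genes follow, among them phosphatases that switch off MAP kinases and proteins that speed the decay of messenger RNA.

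CREB binds a short motif, the CRE, which is known upstream of many immediate early genes, so the upstream sequences of some genes named below are shown here. The RefSeq promoter table (build GRCm38.p6) held 14 of the 17 activity-regulated genes described below, and Arc was not among them. The core of the CRE, TGACG on either strand (CGTCA when read on the other strand), lay within 250 bases upstream of a listed start site in 12 of those 14 genes (85.7%) and in 19.79% of 27025 genes with an entry. The palindrome TGACGTCA, in which both forms of the core overlap, was found in 2 of the 14 (14.3%) and in 1.77% of all genes. The CArG box, which SRF binds, was found in 1 of the 14 (7.1%) and in 1.62% of all. Among the 12 genes with the core were Nr4a2, which was lower in STET, and Bdnf and Homer1, whose groups overlapped. The 17 genes were chosen with earlier results of these data known. A match describes letters in this window and is not evidence of binding. The 250 bases are printed with the core in capitals for Npas4, Btg2 and Fos, which had large folds, for the feedback gene Dusp1, for Gadd45g and for Pcsk1, a lower gene. They lie at chr19:4989972-4990221 (minus strand) for Npas4, chr1:134079156-134079405 (minus strand) for Btg2, chr12:85473640-85473889 (plus strand) for Fos, chr17:26508473-26508722 (minus strand) for Dusp1, chr13:51846425-51846674 (plus strand) for Gadd45g and chr13:75089607-75089856 (plus strand) for Pcsk1.
Npas4: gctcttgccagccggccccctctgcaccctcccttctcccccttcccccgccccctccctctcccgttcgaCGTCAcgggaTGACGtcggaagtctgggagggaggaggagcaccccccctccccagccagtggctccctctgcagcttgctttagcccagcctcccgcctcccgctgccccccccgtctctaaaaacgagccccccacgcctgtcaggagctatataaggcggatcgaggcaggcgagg
Btg2: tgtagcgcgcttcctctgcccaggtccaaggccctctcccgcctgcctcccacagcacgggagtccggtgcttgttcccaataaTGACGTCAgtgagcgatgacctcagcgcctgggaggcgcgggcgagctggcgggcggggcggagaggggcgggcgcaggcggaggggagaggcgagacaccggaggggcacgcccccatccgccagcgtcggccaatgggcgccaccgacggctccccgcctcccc
Fos: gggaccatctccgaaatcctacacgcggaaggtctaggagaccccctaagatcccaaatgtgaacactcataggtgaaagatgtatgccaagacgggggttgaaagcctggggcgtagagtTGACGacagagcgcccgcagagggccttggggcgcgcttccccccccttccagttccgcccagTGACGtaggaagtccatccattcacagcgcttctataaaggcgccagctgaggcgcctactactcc
Dusp1: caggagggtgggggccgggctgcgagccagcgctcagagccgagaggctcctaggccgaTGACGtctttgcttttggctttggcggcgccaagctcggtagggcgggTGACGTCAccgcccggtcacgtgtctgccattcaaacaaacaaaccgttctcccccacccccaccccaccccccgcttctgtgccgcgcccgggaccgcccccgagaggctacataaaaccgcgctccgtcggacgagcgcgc
Gadd45g: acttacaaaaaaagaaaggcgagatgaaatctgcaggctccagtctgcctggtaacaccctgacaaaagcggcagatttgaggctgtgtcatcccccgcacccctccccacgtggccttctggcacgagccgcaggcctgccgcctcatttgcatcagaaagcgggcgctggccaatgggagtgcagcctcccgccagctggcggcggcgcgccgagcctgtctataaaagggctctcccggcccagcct
Pcsk1: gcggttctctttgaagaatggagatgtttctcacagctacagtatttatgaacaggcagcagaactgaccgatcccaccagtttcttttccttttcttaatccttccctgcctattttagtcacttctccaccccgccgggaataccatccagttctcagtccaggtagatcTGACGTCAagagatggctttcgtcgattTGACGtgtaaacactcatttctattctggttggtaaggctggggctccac
Npas4 carried the core on opposite strands 179 and 169 bases upstream of its start. In Fos the cores began 129 and 66 bases upstream. Btg2 and Dusp1 each held the full palindrome, and so did Pcsk1, which was lower in STET. No core was found in this window of Gadd45g.

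Depth overlapped between the groups, with 36.35 to 52.83 M counted reads in Control and 43.65 to 50.29 M in STET. Of 55471 gene IDs, 19492 had enough counts to be tested, and 14805 of these had a mean log2 CPM of 0 or more (CPM, counts scaled to the library total). Markers of CA1 and of pyramidal neurons in general were present, with Fibcd1 at 290 to 401 CPM and Slc17a7 at 1196 to 1321 CPM over the 6 libraries. Some libraries stood apart in transcripts of other tissues. Fabp4, a fatty acid carrier of fat and capillary cells, was at 8.09 CPM in Control 3 and 8.46 CPM in STET 3, while the other 4 reached at most 0.275 CPM. The choroid plexus and ependymal list (15 of 15 genes measured) summed to 460, 1986 and 406 CPM in Control and to 474, 3432 and 775 CPM in STET, so that Control 2 and STET 2 were rich in it. In such bulk samples fewer cells of a type and less RNA per cell cannot be told apart.

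No single gene passed the threshold, an adjusted p under 0.05 in edgeR's quasi-likelihood test with Benjamini-Hochberg adjustment, in either direction (0 of 19492, 0% higher and 0% lower). At an unadjusted p under 0.05 there were 683 genes (3.5%), 384 higher (1.97%) and 299 lower (1.53%). DESeq2 called 1 gene (0.00513%), Gadd45g, and limma-voom called 0. As a description of consistency, 914 genes (4.69%) had all 3 STET libraries above all 3 Control libraries, and 818 (4.2%) had all 3 below. These shares are the background for the counts that follow. A fold of at least 1.5 with a mean log2 CPM of 0 or more was reached by 34 genes on the higher side (0.23%) and 12 on the lower side (0.0811%). Without overlap between the groups these became 17 (0.115%) and 6 (0.0405%). Of the 17, 6 belonged to the lists of activity-regulated, mRNA decay and MAP kinase feedback genes, and 9 were predicted genes or pseudogenes.

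The largest folds of the 14805 genes belonged to 3 of them. Npas4, a transcription factor gene of neurons that answers to calcium influx, was at 54.7, 75.3 and 61.4 CPM in Control and at 251, 223 and 155 CPM in STET. Arc, which promotes endocytosis of AMPA receptors, was at 94.1, 115 and 80.5 CPM in Control and at 297, 285 and 191 CPM in STET. Btg2, which recruits the deadenylase complex that shortens mRNA tails, was at 30.2, 36.4 and 27.7 CPM against 73.5, 74.4 and 52.2 CPM. In each of the 3 genes the groups did not overlap, and STET 3 was the lowest of the STET libraries. Npas4 was 3.30-fold higher (log2 fold change 1.72 ± 0.41 SE), Arc 2.67-fold (1.42 ± 0.33) and Btg2 2.12-fold (1.09 ± 0.30). By p they ranked 15, 13 and 42, and none passed (edgeR adjusted p = 1.00 for each). The fit gave Arc and Npas4 prior degrees of freedom of 0.157 and 0.154, against a median of 8.90 over all genes, so their tests drew almost wholly on their own spread. Without robust dispersion they ranked 2 and 3 by p, at an adjusted p of 0.37 each.

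Among Npas4, Arc, Btg2, Fos and Gadd45g, the STET libraries lay closest together in Gadd45g, a growth arrest and DNA damage gene. It was at 56.9, 57.3 and 45.2 CPM in Control and at 84.9, 89.5 and 83.5 CPM in STET. The STET libraries lay within 1.57 to 1.69 times the Control mean, whereas for Npas4 they ran from 2.44 to 3.94 times. Its log2 fold change was 0.69 ± 0.14, with an unadjusted p of 0.000838, and it did not pass (edgeR adjusted p = 1.00). By p it ranked 3 in edgeR and 1 in DESeq2 (adjusted p = 0.0383), where Npas4 (0.0931) and Arc (0.0942) came next.

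**Figure D1:**
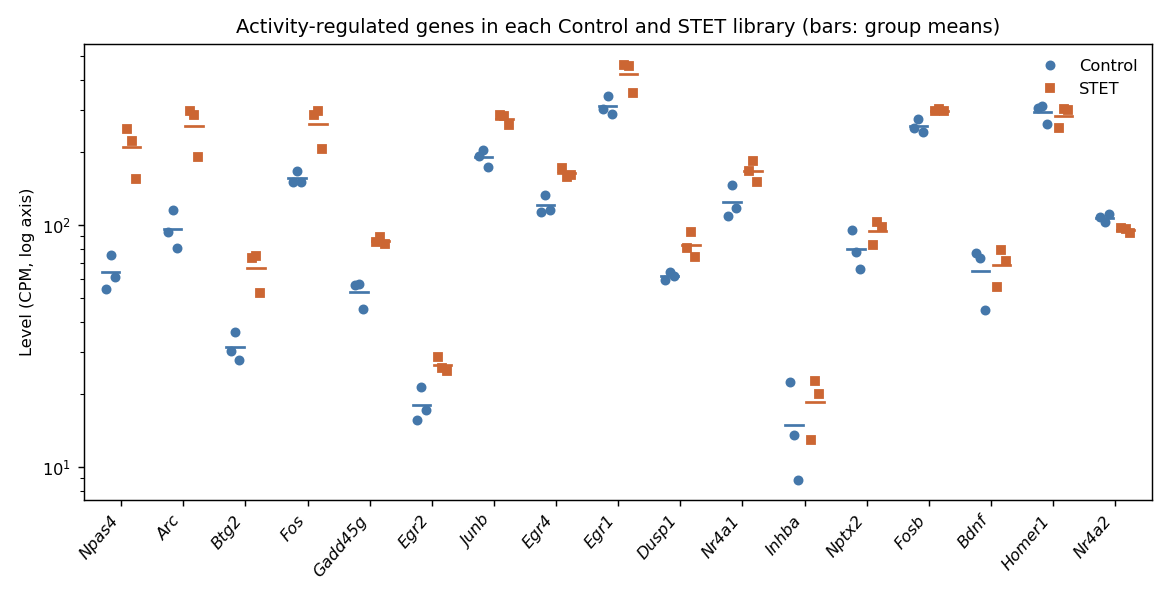
Level of 17 activity-regulated genes in each Control library (blue circles) and each STET library (orange squares), in CPM on a log axis, with bars for the group means and libraries 1 to 3 from left to right. In 12 of the 17 genes every STET library lies above every Control library, in Nr4a2 all lie below, and in 4 genes the groups overlap.

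The other transcription factor genes of the immediate early response differed less. Fos, a partner in the AP-1 dimer, was at 151, 168 and 152 CPM in Control and 285, 295 and 208 CPM in STET (log2 fold change 0.74 ± 0.23). Junb, another AP-1 member, was at 193, 205 and 175 CPM against 285, 282 and 260 CPM (0.53 ± 0.18). Both genes had no overlap, and Junb was more even among the STET libraries than Fos. Ier2, a small immediate early gene, was at 16.9, 19.1 and 16.8 CPM against 27.6, 26.8 and 22.6 CPM (0.55 ± 0.16). The zinc finger genes Egr1, Egr2 and Egr4 were 1.36, 1.46 and 1.36-fold higher, each without overlap. Fosb, whose stable products build up with repeated activity, was only 1.16-fold higher, yet all 3 STET libraries (296 to 302 CPM) exceeded all Control libraries (244 to 275 CPM). The nuclear receptor genes parted, with Nr4a1 1.35-fold higher and Nr4a2 at 0.886 of Control. Nr4a2 was at 108, 103 and 112 CPM in Control and at 97.2, 96.1 and 92.5 CPM in STET. None of these passed (edgeR adjusted p = 1.00 for each) in the main fit, which took its spread from all 12 libraries. In a fit of the Control and STET libraries alone, Junb ranked 1 by p (edgeR adjusted p = 0.0533) and Egr4 2 (0.174). Fosb and Egr2 ranked 11 and 15 (0.687 each), and Nr4a2, Fos, Egr1 and Nr4a1 21, 48, 112 and 216. Gadd45g ranked 4 there (0.174), Ier2 was also at 0.174, and no gene passed.

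Across the list of 31 rapid activity-regulated transcription factors, 24 were positive, 10 had all STET libraries above Control (32.3%) and 1 had all below. The median log2 fold change was 0.12, against −0.0002 over all genes tested. Without Control 3 it was 0.0692, without Control 1 0.185 and without STET 1 0.213. Of 30 effector genes, 21 were positive, 9 lay above and 1 below, with a median of 0.11 that was 0.0684 without Control 3. Arc, Gadd45g and Trib1, a pseudokinase that targets proteins for degradation, led the higher members. Trib1 was at 38.3, 41.1 and 36.5 CPM in Control and 46.3, 52.4 and 47.5 CPM in STET (0.33 ± 0.10). Trib1, Pcsk1 and 3 genes named further on, Adrb1, Uchl1os and Rps27, did not pass here but passed with no filter on low counts (edgeR adjusted p = 2.31e-05 for Trib1 and 0.00711 for Pcsk1). The lowest member was Pcsk1, the convertase that cuts neuropeptide precursors in dense-core vesicles. It was at 66.2, 61.8 and 56.1 CPM in Control and at 48.3, 52.1 and 53.8 CPM in STET (−0.26 ± 0.08, unadjusted p = 0.00456), without overlap. Pcsk1 did not pass (edgeR adjusted p = 1.00).

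A further 4 effectors, secreted or at the synapse, overlapped between the groups. Bdnf, the neurotrophin, was at 76.6, 73.2 and 44.8 CPM in Control and 55.5, 78.9 and 71.2 CPM in STET (0.07 ± 0.24). Its sign turned to −0.16 with only the libraries low in Fabp4 and to −0.13 without Control 3. Inhba, the activin subunit, was at 22.4, 13.5 and 8.88 CPM against 12.9, 22.6 and 20.1 CPM (0.29 ± 0.41), and was at −0.02 in the libraries low in Fabp4. Homer1, a postsynaptic scaffold gene whose short activity-induced form is not separated in gene counts, was at 263 to 313 CPM in Control and 252 to 302 CPM in STET. Nptx2, a pentraxin that clusters AMPA receptors, was at 65.8 to 95.9 CPM against 83.0 to 103 CPM. Control 3 was the lowest Control library for Bdnf, Inhba, Homer1 and Nptx2. It was also the lowest of the 6 libraries in the summed markers of CA2, CA3 and dentate gyrus (15 of 15 genes, none at 0), at 286, 296 and 223 CPM in Control and 247, 305.5 and 262 CPM in STET. Prox1, a marker of dentate granule cells, was at 52.6, 40.5 and 19.0 CPM against 35.0, 47.1 and 39.3 CPM, and C1ql2, another, at 34.9, 29.5 and 9.92 CPM against 23.4, 29.4 and 22.6 CPM. The part of these regions in the values was not tested.

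Among the feedback genes, 14 of 22 mRNA decay regulators were positive and 5 lay above Control without overlap (22.7%), with a median log2 fold change of 0.04 that was 0.0178 without Control 3 and 0.0272 without STET 2. Zfp36l1, which binds AU-rich elements, was at 46.2, 46.2 and 39.2 CPM in Control and 52.7, 56.8 and 54.4 CPM in STET (0.32 ± 0.11). Its relative Zfp36 was at 36.7, 41.8 and 35.1 CPM against 47.6, 54.4 and 41.8 CPM (0.34 ± 0.11), with STET 3 just inside the Control range. Tob1, of the same family as Btg2, was at 33.2 to 37.7 CPM against 39.8 to 43.0 CPM (0.23 ± 0.08). Among 17 MAP kinase phosphatase, Sprouty and Spred genes, 12 were positive, 3 lay above and the median was 0.12. The medians were 0.00, 0.21 and 0.10 in STET 1, 2 and 3, and the list median was 0.0478 without STET 2 and 0.0767 without Control 3. Dusp1, the nuclear MAP kinase phosphatase, was at 59.4, 64.0 and 61.4 CPM against 80.8, 94.1 and 74.2 CPM (0.43 ± 0.14). Spred1, an inhibitor of Ras signalling, went the other way (−0.13 ± 0.05), though its groups overlapped. None passed the edgeR test (adjusted p = 1.00). Of the CREB and SRF pathway genes upstream, 9 of 24 were positive, with a median of −0.03. Within them Camk4, a kinase that activates CREB, was at 53.9 to 56.1 CPM in Control and 48.7 to 53.2 CPM in STET (−0.12 ± 0.05), and Atf4, a stress-response transcription factor, was at 0.11 ± 0.05.

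**Figure D2:**
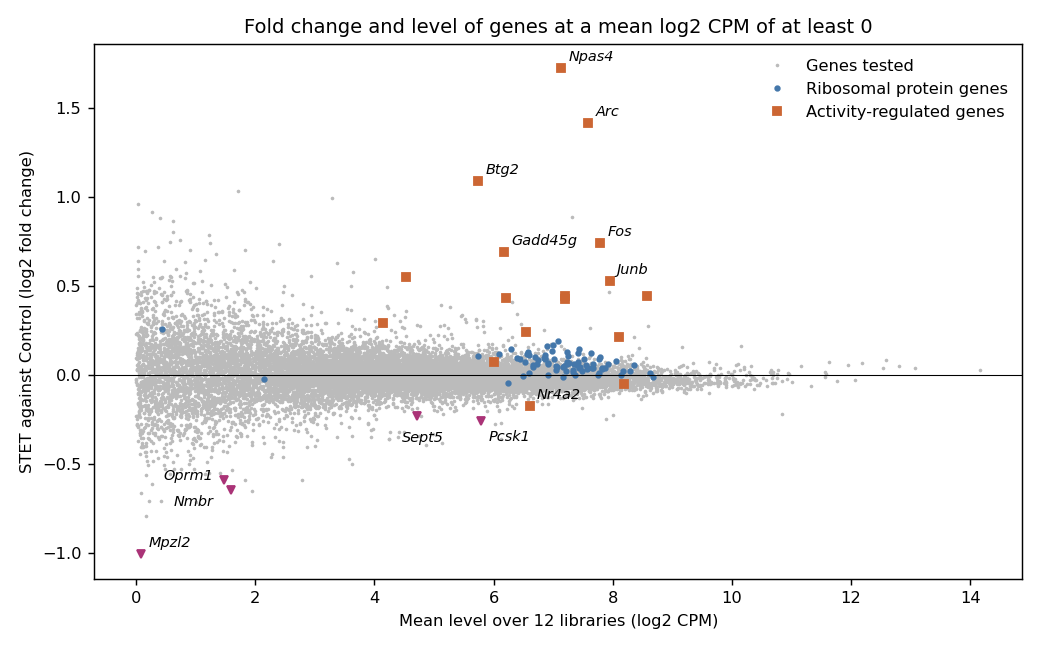
Log2 fold change of STET against Control for 14805 genes, against their mean level in log2 CPM over 12 libraries. Orange squares are activity-regulated genes, blue points ribosomal protein genes and purple triangles named lower genes; Npas4, Arc and Btg2 lie above all others.

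The strongest single genes and the list medians pointed to different STET libraries. STET 1 had the highest level of Npas4 and Arc, at log2 ratios to the Control mean of 1.99 and 1.63. Yet the median of the 61 genes of the transcription factor and effector lists was 0.02 in STET 1, 0.20 in STET 2 and 0.16 in STET 3. STET 3 had the lowest ratios of Npas4 (1.30) and Arc (1.00). Of the 61 genes 45 were positive, and 19 (31.1%) lay above Control against 4.69% of all genes. These lists were chosen with earlier results of these data known, so the share is a description only. With only the libraries low in Fabp4, the median was 0.08 for the transcription factors and 0.04 for the effectors. That fit left out Control 3 and STET 3, and also STET_S100 1 and STET_S200 2 and 3, so it compared replicates 1 and 2 of STET and Control. In it Npas4 (1.88), Arc (1.48), Btg2 (1.16), Fos (0.87) and Gadd45g (0.61) kept their sign and the order of their folds.

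Ribosomal protein genes differed by a small and even amount. Cytosolic ribosomal proteins are the structural parts of the ribosome, and 72 of the 78 tested were positive (92.3%, against 49.9% of all genes). In 41 of them (52.6%) every STET library exceeded every Control library, and the reverse was seen in 0. The size was small, with a median log2 fold change of 0.06, a difference of 4.35%. Each STET library showed it, at medians of 0.07, 0.08 and 0.05. At an unadjusted p under 0.05 there were 18 of the 78, and 0 passed the adjusted threshold.

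The 3 single genes given first were among the ribosomal genes with the smallest p, so they show larger differences than the list median of 0.06. Rpl37a was at 124, 128 and 126 CPM in Control and at 141, 143 and 140 CPM in STET (0.17 ± 0.05, edgeR adjusted p = 1.00). Rps21 was at 168, 170 and 176 CPM against 192, 188 and 188 CPM (0.15 ± 0.05). Rps27 was at 136, 130 and 132 CPM against 158, 153 and 145 CPM (0.19 ± 0.06). No value of STET fell within the Control range in any of the 3. Both subunits took part, with 41 of 46 large and 31 of 32 small subunit genes positive. Ribosomal protein genes have many pseudogene copies, and no source used here gives how the authors' counting shared reads among them. Rpl17-ps10, one such copy, was itself among the higher genes with the smallest p, at 0.96, 1.28 and 1.45 CPM against 2.24, 1.72 and 2.19 CPM.

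The factors that run translation were nearer to the background. Of 34 initiation and elongation factors, 22 were positive, 2 lay above Control and the median was 0.01. Eif1, which helps select the start codon, was at 301 to 304 CPM in Control and 316 to 331 CPM in STET (0.09 ± 0.05). Proteasome subunits, which form the main protein-degrading complex, gave 20 of 31 positive, 1 above and a median of 0.01.

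Nuclear-encoded subunits of oxidative phosphorylation, the mitochondrial respiratory chain and ATP synthase, also differed by small amounts. Of 72 tested, 61 were positive (84.7%), 9 lay above Control (12.5%), 1 lay below and the median was 0.06. It was 0.0273 without Control 1 and 0.0368 without STET 2. Uqcrq, of complex III, was at 64.8, 68.6 and 70.5 CPM in Control and 75.0, 77.8 and 75.4 CPM in STET (0.16 ± 0.04). Uqcrb, also of complex III, was at 55.8, 60.0 and 55.8 CPM against 61.7, 64.0 and 63.1 CPM (0.14 ± 0.04), and Cox7a2, of complex IV, was at 76.9 to 81.6 CPM against 83.8 to 90.4 CPM. All 3 had no overlap and none passed (edgeR adjusted p = 1.00). Atp5mpl, a small protein of the ATP synthase that stood outside the list, was at 57.2, 58.0 and 58.7 CPM against 65.1, 69.4 and 61.5 CPM. For the 13 mitochondrially encoded proteins 8 were positive, 0 lay apart from Control, and the median of 0.04 ranged from −0.01 to 0.09 over the settings tried. Glycolysis and lactate transport showed 7 of 22 positive and a median of −0.02.

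**Figure D3:**
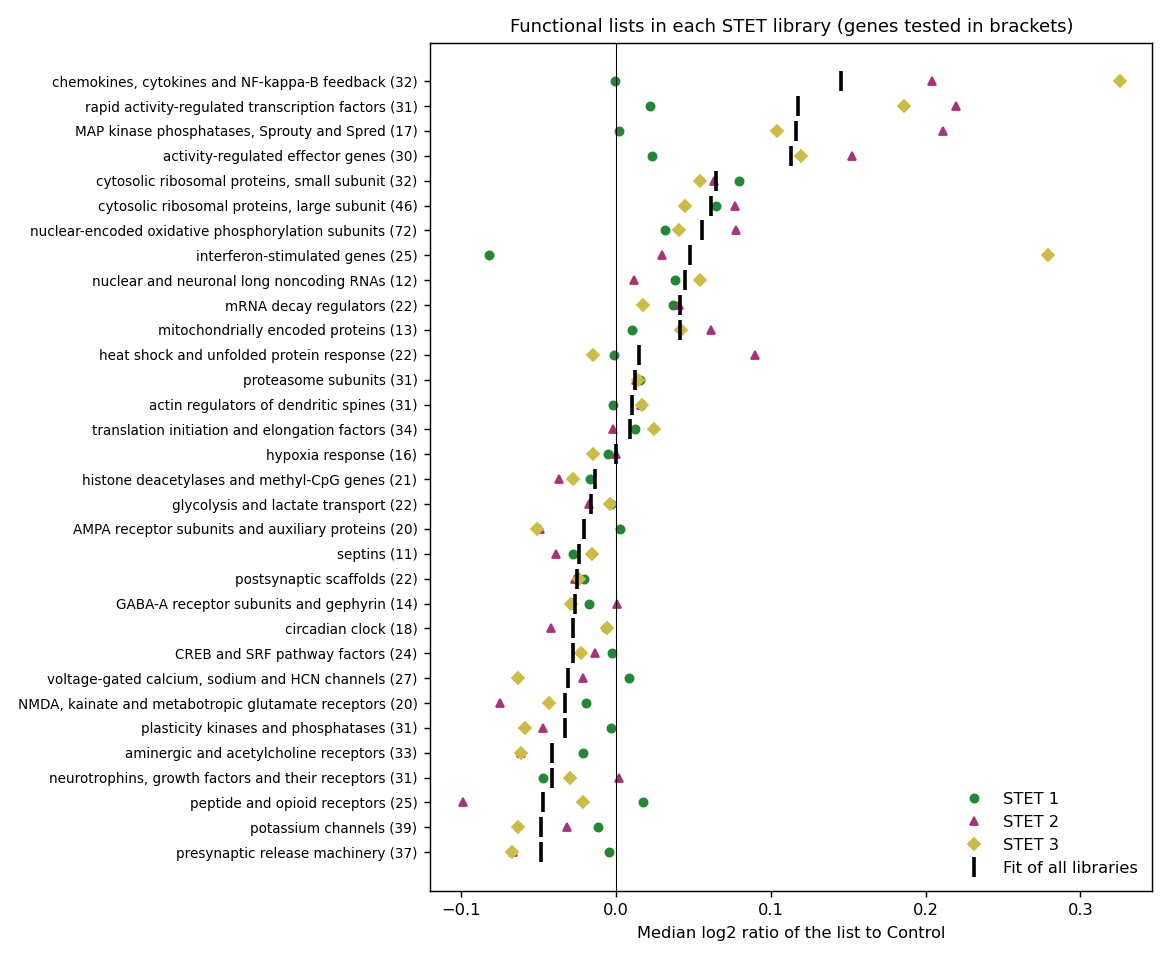
Median log2 ratio to the Control mean of each functional list in STET 1 (green circles), STET 2 (purple triangles) and STET 3 (yellow diamonds), with the median of the fitted log2 fold changes (black bars). The 2 ribosomal lists lie between 0.04 and 0.08 in all 3 libraries, while the chemokine list runs from 0.00 to 0.33.

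Genes of the synapse and of excitability lay slightly on the other side. The 8 lists of plasticity kinases, AMPA, other glutamate and GABA-A receptors, postsynaptic scaffolds, presynaptic release, potassium channels and calcium, sodium and HCN channels held 210 tested genes. Only 46 of them were positive (21.9%, against 49.9% of all genes). None had all STET libraries above Control, and 14 had all below (6.67%). The share below was 4.2% for all genes and 5.66% for the other genes in the longest bin described further on. The median log2 fold change was −0.03, with −0.01 in STET 1, −0.04 in STET 2 and −0.05 in STET 3. At an unadjusted p under 0.05 there were 12 lower and 0 higher, and 0 passed the adjusted threshold. The calcium, sodium and HCN channel median was 0.008 in the libraries low in Fabp4 and −0.0004 without Control 3. The GABA-A median was 0.001 without Control 1. The other lists kept a negative median over 19 settings. In STET 1 the AMPA and the calcium, sodium and HCN channel medians were 0.003 and 0.008.

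Presynaptic release genes had 32 of 37 negative and a median of −0.05. Syn3, a synapsin that tethers vesicles, was at 12.6, 13.2 and 11.1 CPM in Control and 10.98, 10.48 and 9.28 CPM in STET (−0.27 ± 0.09). Rimbp2, which links calcium channels to release sites, was at 90.3, 83.8 and 87.9 CPM against 82.0, 75.1 and 73.4 CPM (−0.19 ± 0.06). Both lay apart from Control by a gap of no more than 0.03 on the log2 scale. Among potassium channels 27 of 39 were negative, with Kcnip4, a subunit of A-type channels, at 31.7 to 33.4 CPM against 26.7 to 31.0 CPM (−0.15 ± 0.06). Grm2, a glutamate receptor that damps transmitter release, was at 34.8, 33.4 and 30.8 CPM against 29.5, 25.6 and 23.1 CPM (−0.34 ± 0.13). Plasticity kinases and phosphatases had 27 of 31 negative, all within −0.11 to 0.02. Postsynaptic scaffolds had 17 of 22 negative with a median of −0.03. None of the genes named here passed (edgeR adjusted p = 1.00).

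Exonic length moved with these groups. It is the merged length of all annotated exons of a gene, which can exceed the length of its single transcripts. Genes with a mean log2 CPM of 0 or more were put into 5 bins of equal number by length. In the bin of the shortest genes, up to 2406 bases, the median log2 fold change was 0.02 and 60.9% were positive. In the bin of the longest, from 7618 bases, it was −0.02 with 38.8% positive. Each STET library showed the same order, from 0.02, 0.03 and 0.04 in the shortest to −0.01, −0.01 and −0.02 in the longest bin. In 5 bins of mean level instead, the median ran from 0.02 in the lowest to −0.01 in the highest, with 54.9% and 36.7% positive. The median length was 1776 bases for the 78 ribosomal genes and 7346 bases for the 210 synaptic and channel genes. Without the ribosomal and oxidative phosphorylation lists the shortest bin had a median of 0.02. Its 204 genes in the highest bin of mean level then had a median of 0.01. Without the 8 synaptic and channel lists the longest bin had 39.5% positive, 2.45% above Control without overlap and 5.66% below. For the 210 genes of the 8 lists these shares were 21.9%, 0% and 6.67%. After a trend on length and GC content was removed, the medians were 0.04 for large and 0.05 for small ribosomal subunits, 0.03 for oxidative phosphorylation, −0.03 for presynaptic release and −0.01 for postsynaptic scaffolds. The parts of length and of mean level in the remaining differences were not tested further.

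**Figure D4:**
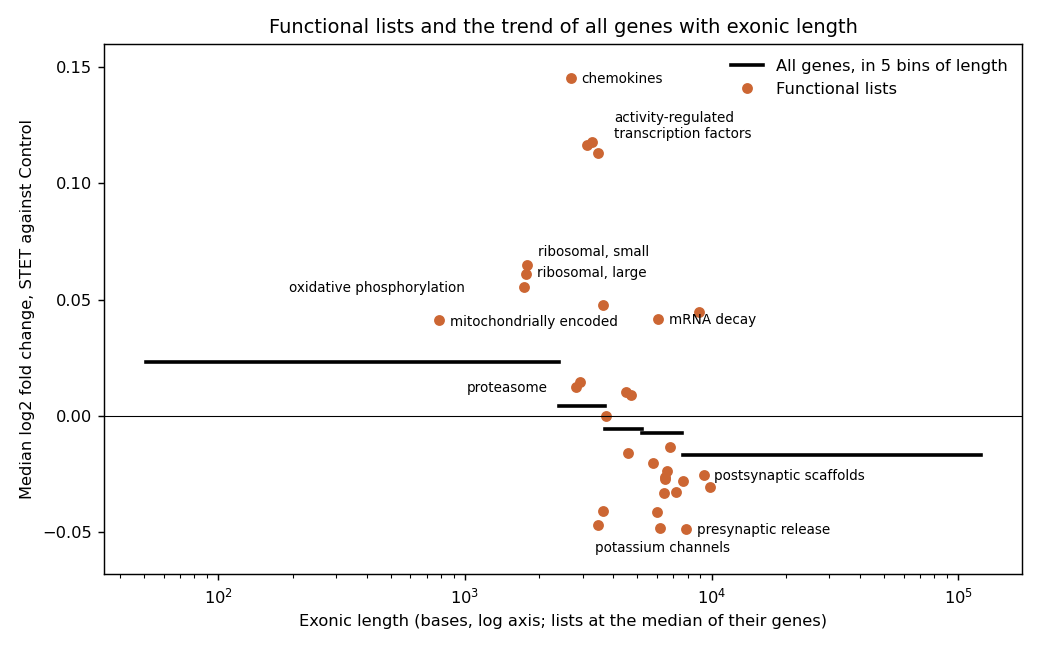
Median log2 fold change of each functional list (orange circles) against the median exonic length of its genes on a log axis, with black lines for the medians of all genes in 5 bins of length, drawn over the range of each bin. The lines step down from 0.02 to −0.02, and the ribosomal lists lie above them at 0.06.

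Among the lower genes with the smallest p, Oprm1 and Nmbr encode receptors for neuropeptides. Oprm1, the mu opioid receptor, was at 3.97, 3.06 and 3.12 CPM in Control and at 2.36, 2.27 and 2.15 CPM in STET (−0.59 ± 0.15). Nmbr, the neuromedin B receptor, was at 4.52, 3.14 and 3.94 CPM against 2.92, 2.56 and 1.95 CPM (−0.64 ± 0.18). Of the other neuropeptide receptors, Tacr1, which binds substance P, was at 3.63 to 4.08 CPM against 2.79 to 3.30 CPM (−0.33 ± 0.13). In all 3 the groups were apart, and Cckbr, the brain cholecystokinin receptor, overlapped at −0.30 ± 0.12. The list as a whole was mixed, with 11 of 25 positive, 1 above, 3 below and a median of −0.05, which was −0.0815 without STET 1, −0.0244 without Control 2 and −0.0223 without STET 2. None passed (edgeR adjusted p = 1.00). The markers of amygdala, subiculum and deep cortex, regions that horizontal slices can hold beside vCA1, summed to 775 to 897 CPM in Control and 770 to 875 CPM in STET (14 of 14 genes, none at 0), and their part in the receptor values was not tested.

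Amine and acetylcholine receptors had 10 of 33 positive and a median of −0.04. Adrb1, the beta-1 adrenergic receptor, stood on the higher side at 30.1, 30.1 and 31.3 CPM in Control and 40.2, 33.9 and 36.5 CPM in STET (0.28 ± 0.08). Htr2a, a serotonin receptor, was at 20.72, 13.75 and 18.15 CPM against 13.82, 13.76 and 13.99 CPM (−0.34 ± 0.13), with Control 2 just below the STET libraries and the other Control libraries above them. Neither passed (edgeR adjusted p = 1.00). Growth factor genes had 11 of 31 positive, with Igfbp5, a binding protein of insulin-like growth factors, at 125, 127 and 130 CPM against 120, 114 and 108 CPM (−0.16 ± 0.06), and Tgfb1 at 6.86 to 8.10 CPM against 8.13 to 9.94 CPM (0.29 ± 0.11).

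The remaining lower genes named by p or by the width of the gap came from varied families. Sept5, a septin that binds the release machinery, was at 28.4, 29.0 and 29.2 CPM in Control and at 24.0, 25.4 and 24.4 CPM in STET (−0.23 ± 0.06, unadjusted p = 0.000718). The groups were 0.16 apart on the log2 scale. Otof, a calcium sensor of vesicle release known from hair cells, was at 13.1, 12.6 and 12.7 CPM against 10.35, 10.03 and 9.78 CPM (−0.35 ± 0.11). Ttyh3, of a family of membrane channel proteins, was at 256, 257 and 251 CPM against 238, 230 and 233 CPM (−0.12 ± 0.04). Kansl3, a subunit of a histone acetyltransferase complex, and Plppr3, a membrane protein of growing axons, were at −0.14 ± 0.04 and −0.17 ± 0.05. Mpzl2, an adhesion protein at 1.23 to 2.36 CPM in Control and 0.60 to 1.01 CPM in STET, had the largest lower fold of the genes with a mean log2 CPM of 0 or more (−1.01 ± 0.30), and Igfbpl1 was at −0.56 ± 0.17. The widest gap on the lower side was that of AC124512.1, a pseudogene (−0.79 ± 0.34). All had groups apart, and none passed (edgeR adjusted p = 1.00).

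On the higher side 3 such genes lay outside the lists described. Gm45743, an unannotated transcript, was at 0.79, 0.60 and 0.74 CPM against 1.39, 1.56 and 1.24 CPM (0.96 ± 0.20). Col6a4, a collagen gene, was at 0.90 to 1.29 CPM against 1.37 to 2.40 CPM (0.80 ± 0.22). Uchl1os, antisense to the neuronal gene Uchl1, was at 15.8, 16.5 and 19.6 CPM against 21.7, 20.9 and 24.7 CPM (0.38 ± 0.10). The libraries were directional, but no source used here gives the strand setting of the counting, so reads of Uchl1 and Uchl1os cannot be told apart. None passed (edgeR adjusted p = 1.00).

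Chemokine, cytokine and NF-kappa-B feedback genes had the highest median of all functional lists, 0.15, with 29 of 32 positive. The libraries were uneven, at 0.00 in STET 1, 0.20 in STET 2 and 0.33 in STET 3, and only 2 of the 32 (6.25%) lay above Control without overlap. Ccl4, a chemokine made by activated microglia, was at 32.3, 38.8 and 22.9 CPM in Control and 44.8, 37.9 and 40.8 CPM in STET (0.40 ± 0.21). Nfkbiz, an inducible regulator of NF-kappa-B, was at 37.2, 44.4 and 44.8 CPM against 44.8, 54.6 and 55.8 CPM (0.30 ± 0.14), and Cxcl2 was at 0.24 ± 0.11. With only the libraries low in Fabp4 the list median was 0.01. It was 0.0868 without STET 3, 0.0957 without Control 3, 0.233 without Control 2 and 0.241 without STET 1. Microglia markers (17 of 17, none at 0) summed to 411 to 439 CPM in Control and 396 to 431 CPM in STET. Interferon-stimulated genes ran from −0.08 in STET 1 to 0.28 in STET 3, with 15 of 25 positive. None of the named genes passed (edgeR adjusted p = 1.00), and the part of the tissue mixture in these values was not tested.

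Markers of the cell types and regions were summed in each library. Oligodendrocyte markers were all positive (16 of 16) with a median of 0.08, but 0 of them lay apart from Control, and the medians were 0.00, 0.24 and 0.03 in STET 1, 2 and 3. The list median was 0.0145 without STET 2 and 0.0186 without Control 2, and 0.126 without STET 1 or Control 3. Their summed level was 3065 to 3718 CPM in Control and 3432 to 4012 CPM in STET. Pyramidal neuron and CA1 markers summed to 4326 to 4750 CPM and 4315 to 4528 CPM, with 6 of 15 positive, and interneuron markers to 1727 to 1857 CPM and 1715 to 1810 CPM. Astrocyte markers summed to 7533 to 8986 CPM and 7850 to 8366 CPM. The choroid plexus list had 14 of 15 genes positive with a median of 0.47, and ratios of −0.71, 2.01 and 0.08 in the 3 STET libraries. Without STET 2 its median was −0.617, and without Control 2 it was 1.59. The CA2, CA3 and dentate gyrus list had 5 of 15 positive, with medians of −0.22, 0.38 and −0.05. Transcripts of peripheral tissues (17 genes) summed to 7.75, 6.60 and 31.95 CPM in Control and 6.47, 6.02 and 20.98 CPM in STET. Alb, the liver albumin gene, was at 8.47 CPM in Control 3, while the next highest of the 6 libraries, STET 3, had 0.0868 CPM. The part of these mixtures in the gene values was not tested. With the choroid score as a covariate, the log2 fold changes were 1.69 for Npas4, 1.39 for Arc, 0.68 for Gadd45g and 0.73 for Fos, and the ribosomal medians were 0.06 for both subunits.

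The remaining lists are given by their counts. Stress genes of the heat shock and unfolded protein response had 16 of 22 positive and a median of 0.01. Hypoxia genes had 8 of 16 positive, 2 above and 3 below, with Adm, a vasodilator peptide, at 0.44 ± 0.19 and the transcription factor Hif3a at −0.38 ± 0.19. Actin regulators of spines had 17 of 31 positive, and Actb, the cytoplasmic actin, was at 1150 to 1184 CPM against 1204 to 1220 CPM. Circadian clock genes had 8 of 18 positive and histone deacetylase and methyl-CpG genes 9 of 21. Long noncoding RNAs had 8 of 12 positive, and the nuclear RNA Malat1 (0.17 ± 0.20) was at 1708 CPM in STET 2 and at 986 to 1264 CPM in the other 5 libraries. None passed (edgeR adjusted p = 1.00).

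The other tetanized groups, STET_S100 and STET_S200, in which the basolateral amygdala was stimulated as well, allowed a test of whether the STET values stood out. Against the mean of both, 0 of 19492 genes (0%) passed the edgeR threshold and 740 (3.8%) had an unadjusted p under 0.05. The difference was 0.20 ± 0.33 for Npas4, 0.05 ± 0.28 for Arc, 0.05 ± 0.25 for Btg2 and 0.13 ± 0.12 for Gadd45g on the log2 scale (edgeR adjusted p = 1.00 for each). Mean levels of Arc were 258 CPM in STET, 270 CPM in STET_S100 and 228 CPM in STET_S200, and those of Npas4 were 210, 206 and 162 CPM. For Nr4a2 they were 95.3, 97.2 and 91.7 CPM, against 108 CPM in Control. A p that misses the threshold does not show that the tetanized groups were alike.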

How the data were processed

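The deposited values were raw read counts per Ensembl gene ID, 1 column per library, as the authors made them. Trimmomatic 0.39, HTSeq 0.11.2, limma, STAR 2.7.1a and R 4.0.2 are listed in the submitters' processing notes, without settings. Per the labels' protocols, directional poly(A) libraries were sequenced as 150 bp paired-end reads. Genome build, annotation release and strand setting: not given in the sources used here. Genes were kept by filterByExpr (minimum count 10, total 15). Counts were scaled by TMM, and edgeR 4.0.16 in R 4.3.3 fitted all 12 libraries with 1 coefficient per group, 8 residual degrees of freedom and robust dispersion (two-sided quasi-likelihood F test, Benjamini-Hochberg adjustment over 19492 genes). Standard errors are the absolute log2 fold change divided by the square root of F. CPM are counts scaled to the TMM-adjusted library totals. Exonic lengths (all exons of a gene merged) and GC content (of its longest transcript) came from GENCODE M21, with lengths matched for 99.6% of IDs.

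Named genes were those with the 10 smallest p and the 5 widest gaps per direction with a mean log2 CPM of 0 or more, the 17 activity genes regardless of p, and from each list at most 4 members by p. Predicted genes were named only among the first 3. The members, the 45 gene lists and the rules were chosen with earlier results of these data known. The lists were described by counts and medians, with no test. Alternatives were other scalings and filters, DESeq2 1.42.0, limma-voom 3.58.1, other dispersion and sample choices, a choroid score, a replicate block and leaving out libraries. Read counts are not independent molecules, and within a group no 2 libraries agreed within sampling noise (chi-square per degree of freedom 5.06 to 13.2).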

Additional observations from a re-analysis of the deposited data

How the results depend on the processing

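The counts past the adjusted threshold were 0 under every setting but a pair. With no filter on low counts edgeR called 12 genes higher and 4 lower, 1297 genes had an unadjusted p under 0.05 and 1501 had all STET libraries above Control, against 683 and 914 with the filter. In that setting 29 genes passed for STET against the mean of the other tetanized groups. DESeq2 called 1 gene higher and 8 for STET against the other tetanized groups. Of the 16 calls with no filter, 5 concern genes named in the report that did not pass with it, Trib1 (adjusted p = 2.31e-05 in edgeR), Uchl1os (0.00189), Pcsk1 (0.00711), Adrb1 (0.00921) and Rps27 (0.0336). The causes were not tested. Leaving out each library in turn gave 0 calls throughout and 494 to 921 genes at an unadjusted p under 0.05. The lowest count came without STET 3 and the highest without Control 1. Of the 45 lists, 19 had a median above 0, and 17 to 23 without 1 library. With 1 library left out, the medians of 42 lists moved by over 1.5 times; those of presynaptic release and both ribosomal lists did not.

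The sign turned for 4 genes. Bdnf was at −0.156 in the libraries with Fabp4 under 1 CPM, −0.131 without Control 3 and −0.0388 without STET 2 (range over left-out libraries −0.131 to 0.214). Homer1 was at 0.0311 without STET 1 (range −0.122 to 0.0311), Inhba at −0.0236 in the libraries with Fabp4 under 1 CPM and Malat1 at −0.0715 without STET 2 (range −0.0715 to 0.304). The labels do not say whether equal replicate numbers mark the same mice, and the main fit used no pairs. Same-numbered Control and STET libraries correlated at 0.18, 0.36 and 0.0467 in their deviations. Libraries of different number correlated from −0.376 to 0.227, the highest being Control 3 with STET 1. These values do not settle whether the numbers pair the libraries. With the replicate block 0 genes passed and 720 had an unadjusted p under 0.05. The chemokine list median ranged from 0.0149 to 0.241, the ribosomal medians from 0.0409 to 0.0765, and presynaptic release from −0.0624 to −0.0267 over 19 settings. With 3 pooled libraries per group, small differences in single genes are not resolved, and genes near 1 CPM rest on fewer reads than genes of higher level.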
